A study of Mus musculus with 10 samples.

Results

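The CCT chaperonin (also called TRiC) is the cytosolic folding machine for newly made actin and tubulin. Its 8 subunit genes, Tcp1, Cct2, Cct3, Cct4, Cct5, Cct6a, Cct7 and Cct8, were examined in mouse oocytes. They were taken as the probe sets that the platform annotation lists with exactly 1 gene, that gene being one of the 8. This gave 25 of the 45101 probe sets on the array: 7 for Cct3, 7 for Cct4, 3 for Cct2, 2 each for Cct6a, Cct7 and Cct8, and 1 each for Tcp1 and Cct5. Of the 25, 20 passed the filter on dim values, which asks for a value over the array median on 3 or more arrays, and every subunit kept at least 1.

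CCT is built of stacked rings in which each subunit is a different protein with a fixed place. Closure of the ring around a client is driven by ATP, and studies of the yeast complex place the subunits that bind ATP tightly (Tcp1, Cct2, Cct4 and Cct5) on one side of the ring and the others (Cct3, Cct6a, Cct7 and Cct8) opposite. Prefoldin and phosducin-like proteins work with it, and tubulin leaving it is handed to tubulin cofactors. In an oocyte its clients include the tubulin of the spindle, the actin of the cortex and Cdc20, the activator of the anaphase-promoting complex.

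All samples were oocytes of B6D2F1 female mice, matured in vivo and held in metaphase II (MII). The mice had received eCG and, 48 h later, 5 IU of hCG, and oocytes were collected 16 h after that and freed of cumulus cells with hyaluronidase. The spindle-chromosome complex (SCC) was removed by microsurgery (3 arrays, replicates 1 to 3), the cytoplast is the enucleated remainder (4 arrays, replicates 1 to 4), and the MII oocyte was left whole (3 arrays, replicates 2 to 4). The series asks whether maternal transcripts are enriched at the spindle. The labels call the arrays biological replicates and do not name animals or pools, so the spread behind the p-values may be partly technical.

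Values are 1-colour intensities, and a fixed amount of amplified RNA was put on every array, so they are relative levels within a sample. Fewer transcripts per oocyte part and a smaller share of its RNA cannot be told apart. Of 12 oocyte markers 11 were measured, 10 of them above background on all arrays. Of 18 cumulus and granulosa cell markers 9 were measured, 8 of them not well above background on any array. The ninth, Kitl, named after its values were seen, was at 158 ± 41.1 (SD, n = 3) on SCC arrays against 96.1 ± 26.1 (n = 4) on cytoplast arrays, above background on 3 of 3 and 2 of 4, and did not pass, with overlapping arrays (limma, log2 0.73, SE 0.28, adjusted p = 0.156). Its part in the results was not tested. The summed intensity of the 9 was 673 to 776 in the SCC, 679 to 694 in the cytoplast and 650.2 to 712 in the MII oocyte. Background here is the 95th percentile of the probe sets of genes of other tissues, between 98.7 and 110.1 on the arrays. Against the cytoplast, the 3944 brightest probe sets (those whose mean log2 intensity exceeded 8) had a median log2 difference of 0.28 in the SCC.

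No CCT subunit passed the test between the SCC and the cytoplast. Of the 20 probe sets 0 were past the threshold (limma, Benjamini-Hochberg adjusted p under 0.05 over 23737 probe sets), where 7.01% of all probe sets tested were past it (6.74% higher, 0.274% lower). At an unadjusted p under 0.05, 3 of the 20 were higher and 0 lower, beside 16.3% and 3.93% of all. With trend and robust moderation the count was also 0. The median log2 difference over the 20 was 0.05, over all probe sets tested 0.01 and over the 3944 bright ones 0.28. The difference was above 0 for 11 of the 20 and for 52.4% of all. The 95% interval lay within a 2-fold difference either way for 18 of the 20 probe sets, both exceptions being probe sets of Cct4, and within 1.5-fold for 11. The 18 include probe sets above background on no array, whose intervals do not bound the level of the transcript. These were 1416037_a_at of Cct2, 1426067_x_at and 1439679_at of Cct3, 1456572_x_at of Cct4, 1423517_at of Cct6a and 1415817_s_at of Cct7. By the brightest probe set of each gene, Cct3 and Cct5 had their lowest group mean in the SCC and Tcp1, Cct4 and Cct8 their highest there.

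**Figure D1:**
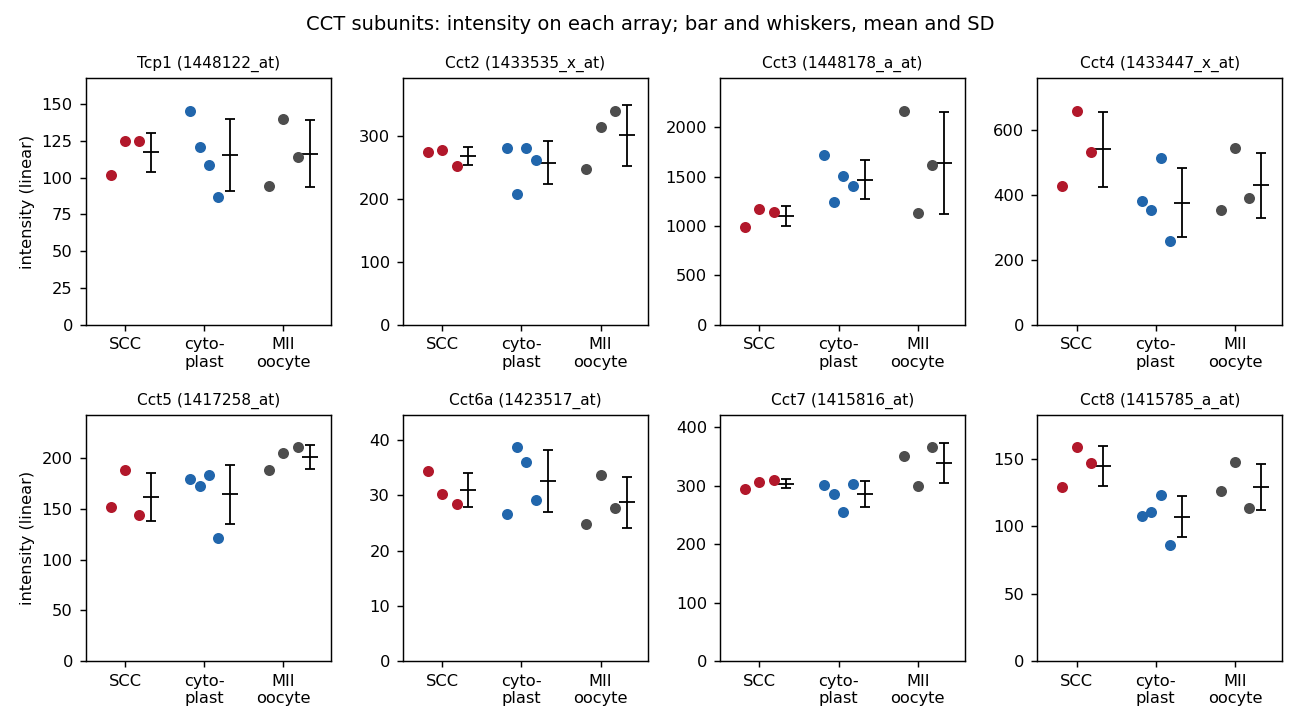
Intensity (linear scale, from 0) on each of the 10 arrays for the brightest kept probe set of each CCT subunit, points being arrays and the bar and whiskers the mean and SD of a group. The SCC arrays of Cct3 all lie below the cytoplast arrays (highest 1175 against lowest 1242) and those of Cct8 all above them (lowest 129 against highest 123), while the SCC and cytoplast arrays overlap for the other subunits. For Cct5 the cytoplast arrays (highest 183) lie below the MII oocyte arrays (lowest 188).

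Among the subunits that bind ATP tightly in yeast, Tcp1, after which the family is named, had an intensity of 102, 125 and 125 on the SCC arrays, 146, 121, 109 and 86.6 on the cytoplast arrays and 94.6, 139.9 and 114 on the MII oocyte arrays. Its SCC values lay inside the range of the cytoplast. The group means of 117 ± 13.3 (SD, n = 3), 115 ± 24.6 (n = 4) and 116 ± 22.7 (n = 3) differed by far less than their spread (SCC against cytoplast, log2 0.04, SE 0.19, 95% interval -0.37 to 0.44, adjusted p = 0.942). Tcp1 was close to background, above it on 3 of 3 SCC, 3 of 4 cytoplast and 2 of 3 MII oocyte arrays.

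Cct2 was read by 3 kept probe sets. The brightest, 1433535_x_at, gave 275, 277 and 252 in the SCC, 280.1, 208, 281 and 261 in the cytoplast and 247, 314 and 339.7 in the MII oocyte. The groups overlapped, and the log2 difference between the SCC and the cytoplast was 0.07 (SE 0.15, adjusted p = 0.861). Another, 1433534_a_at, followed the first over the 10 arrays (Pearson r 0.84, a description) and differed by -0.04 (SE 0.16, adjusted p = 0.931). Its SCC values of 220.4, 227 and 238 were all below the MII oocyte values of 259.9, 293 and 330.0, without passing the test (log2 -0.36, SE 0.17, adjusted p = 0.436). The remaining one, 1416037_a_at, was not well above background on any array.

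Cct5 has 1 probe set, with 152, 188 and 144 in the SCC, 179, 172, 183 and 121 in the cytoplast and 188, 205 and 210.3 in the MII oocyte. The SCC and the cytoplast overlapped (log2 -0.01, SE 0.16, adjusted p = 0.978). Every cytoplast array lay below every MII oocyte array, yet the difference did not pass (log2 -0.31, SE 0.16, adjusted p = 0.926).

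Cct4 belongs to the same side of the ring and had the largest difference of the family from the cytoplast as deposited. Its probe set 1415867_at gave 150.1, 207 and 157 in the SCC, 99.6, 118, 138 and 68.9 in the cytoplast and 71.0, 194 and 101 in the MII oocyte. All SCC arrays were above all cytoplast arrays, but the MII oocyte arrays spread over the range of both. The SCC mean was 171.6 ± 31.1 (SD, n = 3) against a cytoplast mean of 106.1 ± 29.4 (n = 4), 2 of the 4 cytoplast arrays being above background. The log2 difference of 0.72 (SE 0.31, 95% interval 0.04 to 1.41) did not pass (adjusted p = 0.217).

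The brightest Cct4 probe set, 1433447_x_at, gave 428, 660.4 and 533 in the SCC, 382, 352, 514 and 257 in the cytoplast and 354.5, 544 and 389.8 in the MII oocyte. Here cytoplast 3 reached the SCC range, and the log2 difference was 0.54 (SE 0.23, adjusted p = 0.215). Another, 1438560_x_at, differed by 0.45 (SE 0.24, adjusted p = 0.34). The suffix x marks a probe set some of whose probes can bind other transcripts, so the share that is Cct4 is less certain for these. The same limit holds for the other probe sets with this suffix. Among them are 1433535_x_at of Cct2, 1416024_x_at of Cct3 and 1456205_x_at, the brightest of the tubulin cofactor Tbca.

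The Cct4 probe sets did not all follow each other. Over the 10 arrays 1415867_at, 1433447_x_at and 1438560_x_at moved together (Pearson r from 0.90 to 0.98), whereas 1430034_at had r of -0.26, -0.08 and -0.10 with them. That probe set gave 243.6, 297 and 292 in the SCC, 247, 285, 251 and 278 in the cytoplast and 349, 291 and 379.7 in the MII oocyte. Its difference between the SCC and the cytoplast was 0.06 (log2, SE 0.13, 95% interval -0.22 to 0.34, adjusted p = 0.852), and that of 1456082_x_at was -0.00054 (SE 0.17, 95% interval -0.36 to 0.36, adjusted p = 0.999). The last, 1456572_x_at, stayed under background on every array. The probe sets of this gene therefore do not give 1 size for the difference.

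**Figure D2:**
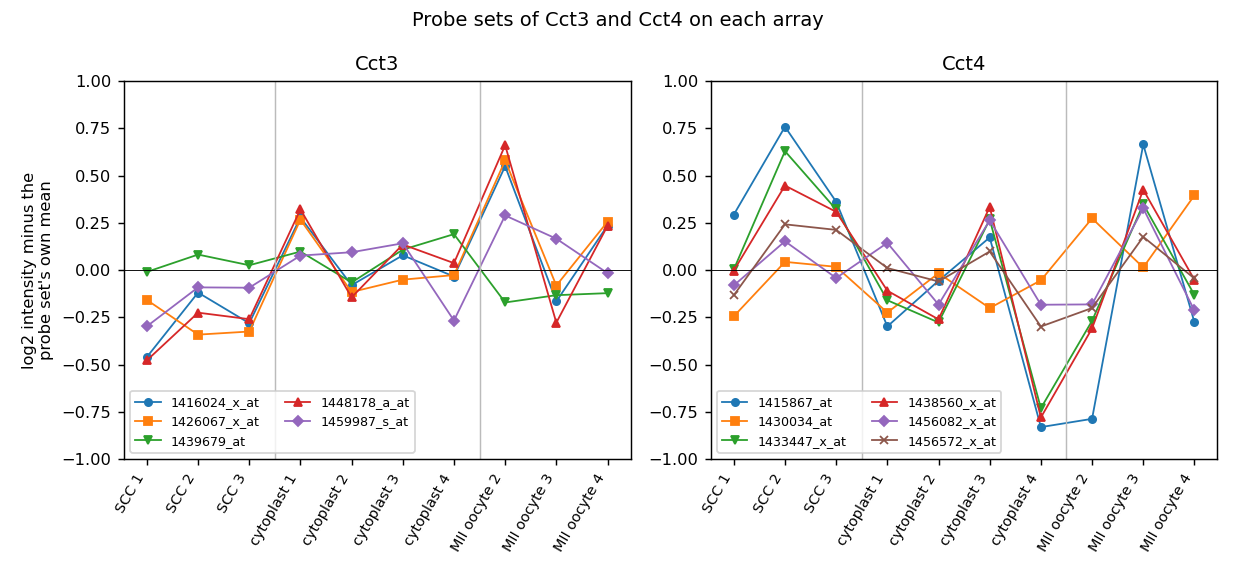
Log2 intensity on each array minus the probe set's own mean over the 10 arrays (y axis), for the 5 kept probe sets of Cct3 and the 6 of Cct4, each line being 1 probe set. For Cct4, cytoplast 4 is the lowest array in 1433447_x_at and 1438560_x_at, and 1430034_at runs apart from the others, with its highest value (379.7) on MII oocyte 4.

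The Cct4 values were also set beside the level of the hybridisation controls, spiked-in transcripts that report on the array and not on the oocyte. Their mean over 18 probe sets split the arrays at its largest gap (0.43 on the log2 scale) into 4 higher arrays (cytoplast 4, MII oocyte 2 and 4, and SCC 3) and 6 lower ones. In 1415867_at the dimmest arrays, cytoplast 4 (68.9) and MII oocyte 2 (71.0), were both among the higher 4. Also among the higher 4, SCC 3 (157) was above SCC 1 (150.1) and MII oocyte 4 (101) above cytoplast 1 (99.6), both of the lower side. Within the 6 lower arrays (2 SCC, 3 cytoplast, 1 MII oocyte) the Cct4 difference between the SCC and the cytoplast was 0.59, and between SCC 3 and cytoplast 4, the only such pair among the higher arrays, it was 1.19 with no replicate. With the control level as a covariate it was 0.69 (SE 0.21) and passed (adjusted p = 0.049). In that fit 11.7% of all probe sets were called higher, against 6.74% without the covariate. The part of the control level in the result was not tested beyond these values.

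On the opposite side of the ring, Cct8 had the smallest p of the family between the SCC and the cytoplast. Its probe set 1415785_a_at gave 129, 159 and 147 in the SCC, 108, 111, 123 and 86.4 in the cytoplast and 126, 147 and 114 in the MII oocyte. Every SCC array was above every cytoplast array, with the whole oocyte between and overlapping both. The means of 144.8 ± 14.7 (SD, n = 3) and 107.2 ± 15.4 (n = 4), the latter with 3 of 4 arrays above background, differed 1.36-fold (95% interval 1.09 to 1.69). On the log2 scale this was 0.44 (SE 0.15), which did not pass (adjusted p = 0.102).

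Cct8 and the brightest Cct4 probe set followed each other more closely than any other 2 subunits over the 10 arrays (Pearson r 0.92). As for Cct4, the Cct8 difference passed with the control level as a covariate (log2 0.43, SE 0.13, adjusted p = 0.0443), in the fit that called 11.7% of all probe sets higher, was 0.33 within the lower arrays and 0.76 between SCC 3 and cytoplast 4. Without any one array the difference stayed between 0.34 and 0.52, with adjusted p from 0.074 to 0.326.

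Cct3, with 5 kept probe sets, had the lower relative level in the SCC. The brightest, 1448178_a_at, gave 986, 1175 and 1147 in the SCC, 1716, 1242, 1508 and 1409 in the cytoplast and 2171, 1132.5 and 1615 in the MII oocyte. All SCC arrays lay below all cytoplast arrays, and the MII oocyte arrays spread from below SCC 2 to above every cytoplast array. The SCC mean was 1103 ± 102 (SD, n = 3) against a cytoplast mean of 1469 ± 198 (n = 4), 1.33-fold apart (log2 -0.41, SE 0.2, 95% interval -0.84 to 0.02, adjusted p = 0.275).

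The second Cct3 probe set, 1416024_x_at, gave 642, 813 and 727 in the SCC, 1072, 835, 932 and 863 in the cytoplast and 1293, 787 and 1039.6 in the MII oocyte. It followed the first almost exactly over the arrays (Pearson r 0.98) and again had no overlap between the SCC and the cytoplast (log2 -0.35, SE 0.17, adjusted p = 0.279). The dimmer 1459987_s_at, between 219 and 329 on all arrays, pointed the same way with overlap (log2 -0.17, SE 0.13, adjusted p = 0.538). The 2 other kept probe sets, 1426067_x_at and 1439679_at, stayed under background on every array.

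The Cct3 result depended on how arrays were scaled. After cyclic loess the difference of 1448178_a_at was -0.69 (SE 0.15, adjusted p = 0.0441) and after quantile normalization -0.70 (SE 0.15, adjusted p = 0.0432), so both scalings put it past the threshold. The same held for 1416024_x_at (log2 -0.61 and -0.66, adjusted p = 0.0442 and 0.0375). Of all probe sets 0.51% and 0.649% were called lower under these scalings. These scalings bring the bright probe sets of the SCC down to those of the cytoplast (median over the 3944 bright ones 0.02 and -0.0018, in place of 0.28). Over the 20 CCT probe sets the median went from 0.05 to -0.11 and -0.16, and those above 0 went from 11 to 7 under each. The sign of the Cct3 difference was the same under all 3 scalings. Cct8 (0.30 and 0.26) and, of Cct4, 1415867_at (0.59 and 0.53) and 1433447_x_at (0.30 and 0.22, from 0.54) kept theirs and did not pass under either. The differences of Tcp1, Cct2 1433535_x_at, Cct7 1415816_at and Cct4 1430034_at, all close to 0 as deposited, turned from above to below it.

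Of the 20 probe sets, 2 had all SCC arrays above all cytoplast arrays (1415867_at of Cct4 and that of Cct8) and 3 all below (of Cct3, 1 of them not above background). Over all probe sets tested 13.9% lay above in this way and 5.89% below.

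**Figure D3:**
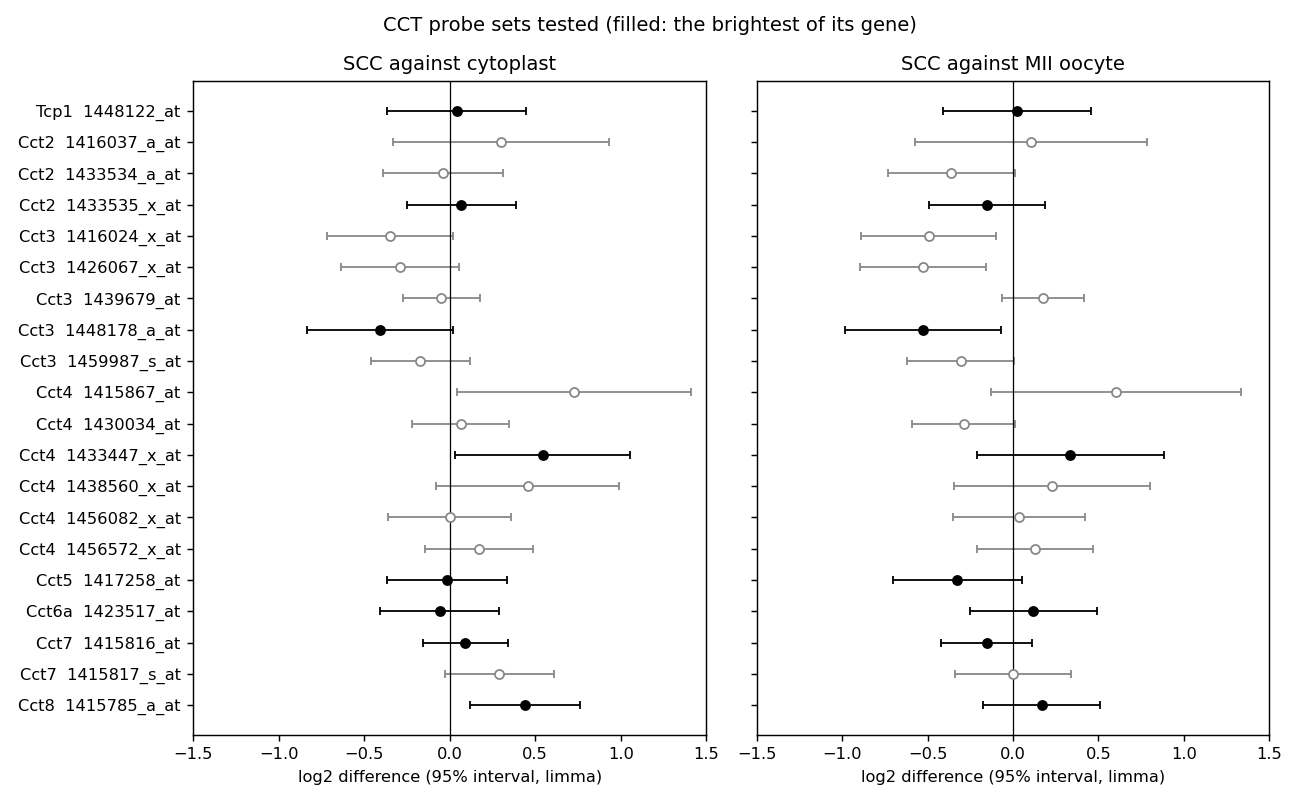
Log2 difference with its 95% interval (limma) for the 20 tested CCT probe sets, SCC against cytoplast on the left and SCC against MII oocyte on the right, filled points being the brightest probe set of a gene. Against the cytoplast the differences run from -0.41 (Cct3) to 0.72 (Cct4), with all 5 probe sets of Cct3 left of 0 and 1 of the 6 of Cct4 at -0.00054, and no probe set had an adjusted p under 0.05 in either comparison.

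Cct7 and Cct6a complete that side. Among the brightest probe sets of the 8 subunits that of Cct7 varied least, 1.44-fold from its lowest to its highest array, with 295, 306 and 309.6 in the SCC, 301, 285, 254 and 302 in the cytoplast and 350.2, 299.8 and 365 in the MII oocyte. The SCC arrays fell within a narrow band that overlapped both other groups (against the cytoplast, log2 0.09, SE 0.11, 95% interval -0.16 to 0.34, adjusted p = 0.736). Its other probe set, 1415817_s_at, was not well above background, and the mean of both moved the Cct7 difference to 0.19. Cct6a was not well above background on any array. Its kept probe set 1423517_at gave between 24.8 and 38.7 in all groups, so no fold is given (adjusted p = 0.894).

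The 5 CCT probe sets below the filter were 1449645_s_at and 1451915_at of Cct3, 1415868_at of Cct4, 1455988_a_at of Cct6a and 1436973_at of Cct8. They ranged from 5.38 to 21.4 on all arrays, far under background, and other probe sets of the same genes were brighter. Fitted without the filter, they had no adjusted p under 0.05 in any of the 3 comparisons.

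**Figure D4:**
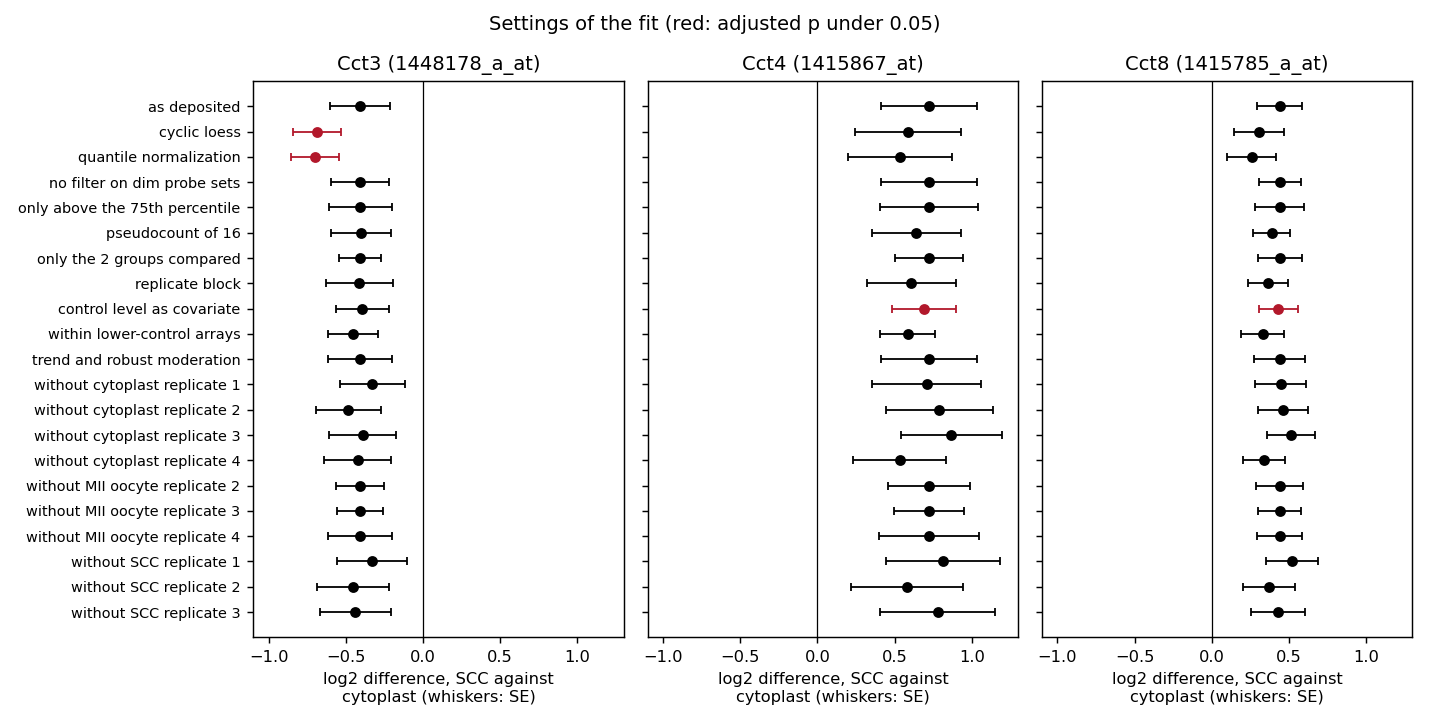
Log2 difference between the SCC and the cytoplast (whiskers, SE) for 1 probe set each of Cct3, Cct4 and Cct8, as deposited and under each other setting of the fit, red marking an adjusted p under 0.05. Cct3 ranges from -0.70 to -0.33, Cct4 from 0.53 to 0.87 and Cct8 from 0.26 to 0.52, with Cct3 past the threshold after cyclic loess and quantile normalization and Cct4 and Cct8 with the control level as covariate.

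Against the whole MII oocyte, which holds both parts, 0 of the 20 CCT probe sets passed in the SCC (limma), beside 0.0421% of all probe sets, and at an unadjusted p under 0.05, 0 were higher and 3 lower, all of Cct3, beside 8.59% and 3.51% of all. By arrays that did not overlap, 1 was higher (the dim 1439679_at of Cct3) and 3 lower (1 of Cct2 and 2 of Cct3), beside 8.71% and 5.34%, and 10 of the 20 differences were above 0, beside 49.8%. Cct3 1448178_a_at had an MII oocyte mean of 1639.5 ± 519.5 (SD, n = 3) against 1103 ± 102 in the SCC (log2 -0.53, SE 0.21, 95% interval -0.98 to -0.07, adjusted p = 0.332). This difference did not pass, and its size varied with the arrays used. Within the 6 arrays of lower control level, where MII oocyte 3 stands alone for its group, it was -0.07. With single arrays left out it ran from -0.77 to -0.30, with adjusted p from 0.0429 to 0.823. The largest size was without MII oocyte 3, at 1132.5 far below the other 2. Leaving out that array also raised the lower calls over all probe sets from 0 to 253 (1.07%) and the higher ones from 10 to 444. The dim 1426067_x_at of Cct3 also passed without that array (log2 -0.69, adjusted p = 0.0425). Cct4 1415867_at differed by 0.60 (SE 0.33, adjusted p = 0.52) and Cct8 by 0.17 (SE 0.16, adjusted p = 0.748). Within the 6 arrays of lower control level both turned below 0 (-0.14 and -0.04), with MII oocyte 3 the only whole-oocyte array there.

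Between the cytoplast and the MII oocyte 0 of the 20 passed and 0% of all probe sets did, with 1 higher and 1 lower at an unadjusted p under 0.05 (1.16% and 3.28% of all) and 1 higher and 2 lower by arrays that did not overlap (1.89% and 3.83%). Of the 20, 3 had a difference above 0, where 39% of all probe sets did, and the median was -0.20 beside -0.05. The 3944 bright probe sets had a median of -0.18 here. The CCT median was -0.074 after cyclic loess, -0.065 after quantile normalization and -0.072 without cytoplast replicate 4. The lower one by p was 1430034_at of Cct4 (265 ± 19.1 in the cytoplast, 340.0 ± 44.8 in the MII oocyte, log2 -0.35, SE 0.13, adjusted p = 0.926), whose arrays did not overlap. The higher one by either measure was the dim 1439679_at of Cct3. The same MII oocyte arrays serve as reference in both comparisons with the whole oocyte. In 9 of the 20 probe sets the MII oocyte had a higher mean than both parts, in 8 it lay between them and in 3 below both, against 33.4%, 46% and 20.6% of all probe sets.

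The 8 subunits did not share 1 pattern over the arrays. Of the 28 pairs of subunits, each read by its brightest kept probe set, 18 had a positive Pearson r over the 10 arrays and the median was 0.20. The range was from -0.75 (Cct6a with Cct7) to 0.92 (Cct4 with Cct8). Without Cct6a, which was under background on every array, 15 of 21 pairs had a positive r, the median was 0.28 and the lowest -0.44. Cct3 had r of -0.44 with Cct4 and -0.40 with Cct8. These values are descriptions of 10 arrays that share groups and scaling. The mean profile of the 8 followed Cct5 (r 0.87), Cct4 (0.80) and Cct8 (0.76) most closely and had r near 0 with Cct3 (0.02) and Cct6a (-0.03). Each subunit is itself part of this mean, which raises its r with it.

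Among the proteins that deliver clients to CCT or take tubulin from it, some passed in the comparison of the SCC with the cytoplast. Of 60 measured genes in 8 lists of CCT relatives, partners, clients and other chaperones, 9 were higher and 0 lower, beside 8.02% and 0.275% of all 12713 genes. Of 3 phosducin-like genes 2 were higher (median log2 0.66), of 8 prefoldin and prefoldin-like genes 2 (0.18), of 6 tubulin cofactor genes 2 (0.20), of 17 heat shock chaperone genes 2 (0.04) and of 3 CCT relatives 1 (0.25). The last of these, Bbs10, met the filter on dim values only through the SCC arrays. None of 12 actin and tubulin genes (0.12), of 9 other clients (0.01) and of 2 mitochondrial chaperonin genes (0.26) passed. The median of all genes was 0.02. Against the MII oocyte 0 of the 60 passed in the SCC, beside 0.0472% of all genes, and 0 in the cytoplast. No test of the difference between these lists and the subunits was made.

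Pdcl3, a phosducin-like protein that binds CCT, gave 879.5, 1267 and 1408 in the SCC, 473, 424, 467 and 640.3 in the cytoplast and 576, 589 and 774 in the MII oocyte. Every SCC array was above every array of the other groups. Against the cytoplast it was 2.35-fold higher (log2 1.23, SE 0.19, adjusted p = 0.00637) and passed under all 10 other settings and without any one array. Its relative Pdcl was 1.58-fold higher (147.8 ± 26.7 against 93.0 ± 9.83, log2 0.66, SE 0.14, adjusted p = 0.0176), with 1 of the 4 cytoplast arrays above background. Its other probe set passed too (log2 0.56, adjusted p = 0.0295) but was under background on every array.

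Prefoldin captures actin and tubulin chains as they leave the ribosome. Its subunit Pfdn4 gave 7627, 9189 and 10802 in the SCC, 4664, 4592, 4617 and 5712 in the cytoplast and 5866, 7148 and 5796 in the MII oocyte, which is 1.87-fold between the first of these groups and the second (log2 0.90, SE 0.15, adjusted p = 0.00701). The groups were apart on every array. Vbp1, another prefoldin subunit, was 1.97-fold higher (253.5 ± 74.8 against 128 ± 32.3, log2 0.98, SE 0.23, adjusted p = 0.0272), 3 of its 4 cytoplast values being above background.

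Tbca, the cofactor that receives beta-tubulin, had means of 1881 ± 187 (SCC) and 1129 ± 149 (cytoplast), a 1.67-fold rise (log2 0.74, SE 0.13, adjusted p = 0.0107). Of its 3 other kept probe sets 2 also passed (log2 0.96 and 0.64) and 1 did not (0.36, adjusted p = 0.124). Tbcb, which binds alpha-tubulin, passed (adjusted p = 0.0395) but was above background on 2 SCC arrays and no cytoplast array, and no fold is given. The heat shock partner Dnaja1, an Hsp70 co-chaperone, was 2.26-fold higher (248.6 ± 19.4 against 109.7 ± 6.22, log2 1.18, SE 0.18, adjusted p = 0.00584), 3 of 4 cytoplast arrays being above background, though another probe set, above background on 8 of the 10 arrays, was at 0.08 (SE 0.47, adjusted p = 0.955) and the remaining one was under background throughout. St13, an Hsp70-interacting protein, was 1.51-fold higher (log2 0.59, SE 0.13, adjusted p = 0.0189), while its next probe set did not pass (log2 0.31, adjusted p = 0.31) and the remaining one was under background on every array. Bbs10, a distant relative of the CCT subunits, passed (adjusted p = 0.0317) without being above background on any array. It was over the array median only on the SCC arrays (16.7, 17.1 and 25.5). It thus met the filter on dim values only through the group where it is higher, and its call is not taken as support.

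After cyclic loess Pdcl3 (log2 0.98, adjusted p = 0.012), Dnaja1 (log2 1.02, adjusted p = 0.0238) and Bbs10 remained past the threshold, and Pfdn4, Vbp1, Pdcl, Tbca, Tbcb and St13 did not. After quantile normalization the same 3 passed. Higher calls over all probe sets were 2.13% and 1.76% under these scalings. Without SCC replicate 2 only Pdcl3, Pfdn4 and Dnaja1 of the 9 passed, and without SCC replicate 3 those and Pdcl. Without cytoplast replicate 1 they were Pdcl3, Pfdn4, Dnaja1, Tbca and St13, and without cytoplast replicate 2 Pdcl3, Pfdn4, Dnaja1, Tbca and Vbp1. Without these arrays, in the same order, 1.14%, 1.02%, 2.44% and 2.86% of all probe sets were called higher, against 6.74% with every array.

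**Figure D5:**
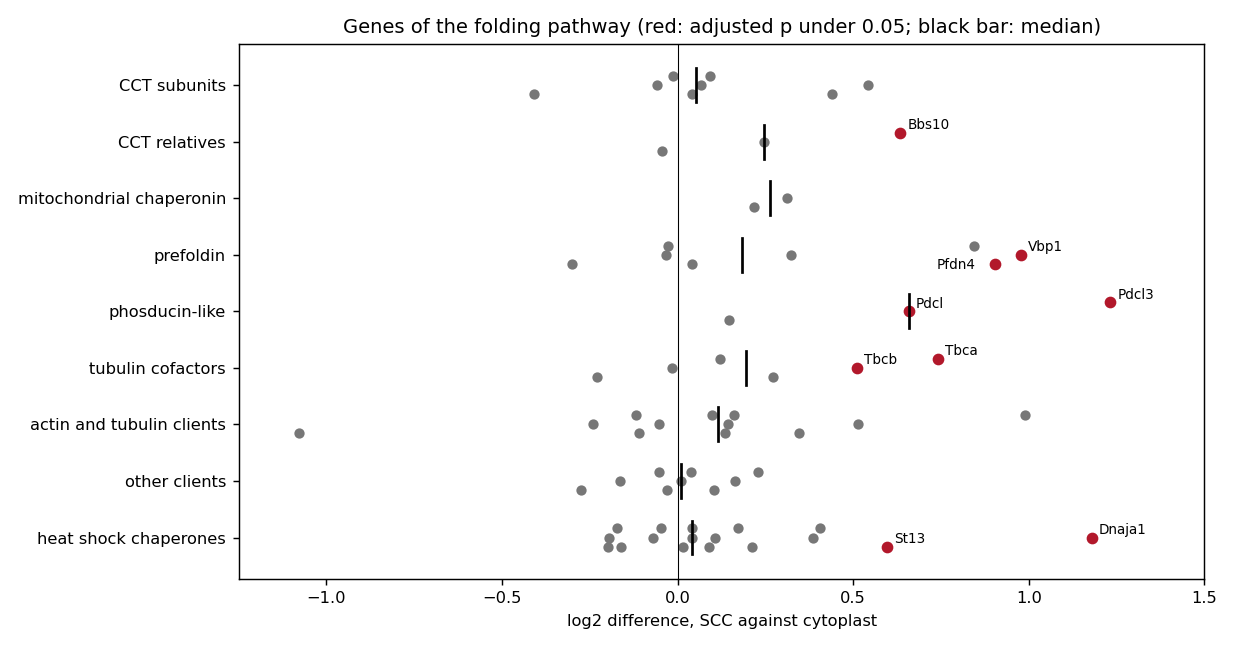
Log2 difference between the SCC and the cytoplast for each measured gene of the CCT list and 8 further lists (points, 1 gene each, height within a row only separating them), red marking an adjusted p under 0.05 and the black bar the median of the list. The CCT subunits lie between -0.41 and 0.54 with 0 of 8 past the threshold. Of 60 genes of the other lists 9 were called higher, the farthest being Pdcl3 at 1.23, beside 8.02% of all genes. Bbs10, 1 of the 9, met the filter on dim values only through the SCC arrays.

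Of the clients, Actb, beta-actin, had the lowest value relative to the cytoplast. It gave 115, 159 and 147 in the SCC, 444, 270.4, 273 and 226 in the cytoplast and 222, 128 and 342 in the MII oocyte. The SCC arrays were all below the cytoplast arrays, but the difference did not pass as deposited (log2 -1.08, SE 0.3, adjusted p = 0.0557) and did after cyclic loess (log2 -1.28, adjusted p = 0.0377) and quantile normalization (log2 -1.32, adjusted p = 0.0367). On the deposited scale it passed with the filter at the 75th percentile, with only the 2 groups compared and with the control level as covariate. Leaving out MII oocyte replicate 3, MII oocyte replicate 4 or cytoplast replicate 4 also put it past the threshold. Within the lower-control arrays it was -1.24. The other kept probe set of Actb, above background on all arrays, was at -0.27 (SE 0.27, adjusted p = 0.672). The array's control probe sets for the 3′ and 5′ ends of beta-actin, a sign of RNA quality that also reads this transcript, lay 3.42 ± 0.201 (log2, SD, n = 3) apart on SCC arrays against 4.62 ± 0.687 (n = 4) on cytoplast arrays (permutation test, exact and two-sided, p = 0.0571, smallest possible 0.0286). For Gapdh the same distance was 2.87 ± 0.48 against 3.17 ± 0.556, with overlap (exact permutation p = 0.429). The part of RNA quality in the CCT values was not tested. The tubulin gene Tubb2a, named after its values were seen, gave 1333, 2096 and 2881 in the SCC, 963, 709, 962 and 1584 in the cytoplast and 964, 1408 and 1556 in the MII oocyte. With cytoplast 4 above SCC 1, the groups overlapped and the difference did not pass (log2 0.99, SE 0.3, adjusted p = 0.0716). It passed with the filter at the 75th percentile, the replicate block and the control level as covariate, within the lower-control arrays, and without SCC replicate 1 (log2 1.28, adjusted p = 0.0264) or cytoplast replicate 4 (log2 1.21, adjusted p = 0.0261). Its suffix s marks probes shared between transcripts, and its other probe set, above background on 1 array, did not pass (log2 0.59, adjusted p = 0.351). Actg1, gamma-actin, did not pass (log2 0.14, SE 0.14, adjusted p = 0.654), nor did the kinase Plk1, which was not well above background in either group (adjusted p = 0.431).

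The chaperonin of mitochondria, Hspd1 with its lid Hspe1, is a separate machine of the same broad class. Hspd1 gave 489.6, 577 and 471 in the SCC, 433, 403.5, 489 and 337 in the cytoplast and 416, 623 and 368 in the MII oocyte. The groups overlapped (SCC against cytoplast, log2 0.31, SE 0.19, adjusted p = 0.401). Hspe1 was not well above background on any SCC or cytoplast array (adjusted p = 0.532).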

How the data were processed

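The deposited table holds linear intensity values for 45101 probe sets on 10 Affymetrix arrays. Per the labels' protocols, no more than 50 ng of RNA a sample were amplified in 2 rounds, and each array received 10 µg of labelled cRNA. Per the submitters' processing notes the authors used RMA, with settings not stated there. Array medians lay from 15.6 to 16.6. Precision is limited by how few arrays there are.

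The values were log2-transformed and fitted by limma 3.58.1 (R 4.3.3) as group means of the 10 arrays. Benjamini-Hochberg adjustment ran over 23737 probe sets (no controls, and over the array median on 3 or more arrays), at a threshold of 0.05. Folds are 2 to the power of the log2 difference. A gene's value was its brightest kept probe set listed with 1 gene. Symbols came from the platform annotation, updated through gene IDs with the RefSeq table of GRCm38.p6 (34754 of 34945 matched). As no source used here gives the annotation's build, no coordinates are printed. Background on each array was the 95th percentile of the 52 probe sets of the other-tissue list. Where a group had none above it, only a bound could be given, and the only such bound (Tbcb) was under 1. The fit was tested on simulated data.

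Named were all CCT probe sets, the genes of each list past the threshold against the cytoplast (or the one with the smallest p), Actb, Actg1, Hspd1, Hspe1 and the 5 genes most like the mean CCT profile. The members and the lists were chosen with earlier results of these data known. Alternatives changed the scaling, filter, pseudocount, arrays, moderation, replicate block and hybridisation control level.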

Additional observations from a re-analysis of the deposited data

Results flagged for a closer look

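In the cytoplast, the only group of 4 arrays, the highest or lowest array stood apart from the others (gap to its neighbour, as a share of the whole range, past Dixon's 95% critical value) for 2 of 34 probe sets, none of them a CCT subunit. Chance flags about 1 in 20 such groups. For Pfdn4, cytoplast 4 was at 5712 while the other cytoplast arrays were between 4592 and 4664, and all SCC arrays remained above it. For Dnaja1, cytoplast 3 was at 100.5 while the others were between 112 and 114. Groups of 3 arrays were not examined in this way.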

How the results depend on the processing

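Between the SCC and the cytoplast the count of CCT probe sets past the threshold was 0 as deposited, 2 lower (Cct3) after cyclic loess, 2 lower (Cct3) after quantile normalization and 2 higher (Cct4 and Cct8) with the hybridisation control level as covariate, beside 0.51%, 0.649% and 11.7% of all probe sets in these directions. It was 0 under the 7 other settings and whichever array was left out. Against the MII oocyte it ranged from 0 to 2 with single arrays left out, the 2 being Cct3 without MII oocyte replicate 3. In the 8 further lists the 9 calls became 4 after cyclic loess (Actb lower, 3 higher), 5 after quantile normalization (Actb and Ccne1 lower, 3 higher) and 3 to 10 with single arrays left out. They became 12 with the control level as covariate (adding Actb lower, Tubb2a and Tubb3 higher), 10 with the replicate block and 9 within the lower-control arrays (7 higher, with Actb and Hsp90b1 lower). Between the SCC and the cytoplast the replicate block gave 1834 higher and 110 lower over all probe sets, against 1599 and 65 as deposited. Against the MII oocyte the 0 calls of the lists became 1 with the replicate block (Pdcl3) and 3 with the control level as covariate (Pdcl3, Tbcb and Tubb3). With single arrays left out they were 0 to 1 (Dnaja1, without MII oocyte replicate 3). Over all probe sets the calls in this comparison were 10 higher and 0 lower as deposited. They were 125 and 14 with the replicate block, 296 and 15 with the covariate and 444 and 253 without MII oocyte replicate 3. Between the cytoplast and the MII oocyte Hsp90b1 differed by 0.85 (log2) within the lower-control arrays, where MII oocyte 3 stands alone for its group. Ccne1, Tubb2a, Tubb3 and Hsp90b1 were named after their values were seen. The cause of these changes was not tested.

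Of 1188 differences of CCT probe sets under alternatives, 86 had the opposite sign to the value as deposited, none past the threshold in either fit. The reversed log2 differences, with those of Actg1 and Hspd1, are given by setting. After cyclic loess the values for SCC against cytoplast were Tcp1 1448122_at (-0.087), Cct2 1433535_x_at (-0.15), Cct4 1430034_at (-0.16), Cct7 1415816_at (-0.13) and Actg1 1415779_s_at (-0.039). After cyclic loess the values for SCC against MII oocyte were Tcp1 1448122_at (-0.022), Cct4 1456082_x_at (-0.025) and Cct7 1415817_s_at (0.026). After cyclic loess the values for cytoplast against MII oocyte were Tcp1 1448122_at (0.066), Cct3 1416024_x_at (0.012) and Cct3 1448178_a_at (0.048). After quantile normalization the values for SCC against cytoplast were Tcp1 1448122_at (-0.13), Cct2 1433535_x_at (-0.19), Cct4 1430034_at (-0.21), Cct7 1415816_at (-0.19), Hspd1 1426351_at (-0.026) and Actg1 1415779_s_at (-0.092). After quantile normalization the values for SCC against MII oocyte were Tcp1 1448122_at (-0.064), Cct4 1456082_x_at (-0.065) and Cct7 1415817_s_at (0.013). After quantile normalization the values for cytoplast against MII oocyte were Tcp1 1448122_at (0.065), Cct3 1416024_x_at (0.036), Cct3 1448178_a_at (0.041) and Cct3 1459987_s_at (0.013). With a pseudocount of 16 the values for SCC against MII oocyte were Cct7 1415817_s_at (0.00031). With the replicate block the values for SCC against cytoplast were Tcp1 1448122_at (-0.033). With the replicate block the values for SCC against MII oocyte were Tcp1 1448122_at (-0.089) and Cct4 1456082_x_at (-0.053). With the control level as covariate the values for SCC against MII oocyte were Tcp1 1448122_at (-0.017), Cct2 1416037_a_at (-0.0030) and Cct4 1456082_x_at (-0.041). With the control level as covariate the values for cytoplast against MII oocyte were Cct4 1456082_x_at (-0.026). Within the lower-control arrays the values for SCC against cytoplast were Tcp1 1448122_at (-0.14). Within the lower-control arrays the values for SCC against MII oocyte were Tcp1 1448122_at (-0.31), Cct2 1416037_a_at (-0.29), Cct4 1415867_at (-0.14), Cct4 1433447_x_at (-0.032), Cct4 1438560_x_at (-0.20), Cct4 1456082_x_at (-0.29), Cct4 1456572_x_at (-0.12), Cct6a 1423517_at (-0.062), Cct7 1415816_at (0.0023), Cct7 1415817_s_at (0.020) and Cct8 1415785_a_at (-0.043). Within the lower-control arrays the values for cytoplast against MII oocyte were Cct3 1416024_x_at (0.26), Cct3 1426067_x_at (0.12), Cct3 1448178_a_at (0.38), Cct4 1456082_x_at (-0.25) and Cct6a 1423517_at (-0.016).

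For SCC against cytoplast the ranges over single arrays left out that cross 0 were those of Tcp1 1448122_at (-0.090 to 0.16), Cct2 1433534_a_at (-0.16 to 0.049), Cct2 1433535_x_at (-0.032 to 0.11), Cct4 1456082_x_at (-0.072 to 0.084), Cct5 1417258_at (-0.16 to 0.064) and Cct6a 1423517_at (-0.15 to 0.029). For SCC against MII oocyte the ranges over single arrays left out that cross 0 were those of Tcp1 1448122_at (-0.12 to 0.17), Cct2 1416037_a_at (-0.30 to 0.33), Cct4 1456082_x_at (-0.063 to 0.21) and Cct7 1415817_s_at (-0.052 to 0.057). For cytoplast against MII oocyte the ranges over single arrays left out that cross 0 were those of Tcp1 1448122_at (-0.16 to 0.13), Cct2 1416037_a_at (-0.60 to 0.032), Cct3 1416024_x_at (-0.33 to 0.026), Cct3 1448178_a_at (-0.36 to 0.11), Cct4 1415867_at (-0.45 to 0.28), Cct4 1456082_x_at (-0.062 to 0.21) and Cct4 1456572_x_at (-0.13 to 0.060).

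The labels do not say that arrays of the same replicate number share oocytes. Residuals of such arrays correlated at 0.02 on average over 8 pairs (-0.30 to 0.61). Over the 25 pairs of unlike number the average was -0.01 (-0.53 to 0.40). With ranges this wide the values cannot tell whether such arrays share oocytes. With the replicate block the CCT calls were 0 in each comparison. Arrays left alone in a group are assumed to vary like the others. For probe sets near background, such as those of Cct6a, neither a difference nor its absence can be read as the level of the transcript.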

Other observations

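Genes outside the folding pathway whose profile over the 10 arrays was most like the mean of the 8 CCT subunits were Snrnp200 (Pearson r 0.94), a helicase of the spliceosome, Ppp4r1 (0.94), a regulator of protein phosphatase 4, Fpgt (0.92), an enzyme of fucose metabolism, Rbm39 (0.92), an RNA-binding splicing factor, and Zfp995 (0.91). The likeness was measured over the same 10 arrays and carries no test. Snrnp200 had means of 532 ± 61.2 (SD, n = 3, SCC), 496 ± 103 (n = 4, cytoplast) and 559.6 ± 67.6 (n = 3) in the MII oocyte. Fpgt was at 947 ± 143, 801 ± 183 and 938.5 ± 44.3 in the same order. Rbm39 was above background on 2 of the 10 arrays and Zfp995 on none. The mean profile had an r of 0.02 with Cct3, so likeness to the mean is not likeness to each subunit.

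Of the 5 relatives of CCT, 3 were measured, none of them above background on any array. Cct6b, which in mice is a form of the sixth subunit made mainly in testis, had means of 14.1 ± 0.936 (SCC) and 14.7 ± 2.46 (cytoplast; log2 -0.05, SE 0.15, adjusted p = 0.918).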
